A study of Homo sapiens with 23 samples.

Results

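The subject was the RNA of 9 genes of major histocompatibility complex (MHC) class I antigen presentation in MCF10A cells, a non-transformed human mammary epithelial line. The genes were chosen by name, as HLA-B, HLA-C, HLA-E, HLA-F, B2M, TAP1, TAP2, TAPBP and NLRC5, and all 9 were found among the 58358 genes of the expression table. RNA was sequenced from 13 lines with 1 library each. The 10 mutant lines carried, by stable lentiviral expression, a V5-tagged p53 missense protein beside the cells' own wild-type p53. By the paper's western blots, the mutant protein was at a raised level in all of them but Y234C. Changes at residues that touch DNA gave 4 contact mutants (R273H, R273C, R248W and R248Q), and 6 structural mutants (Y163C, R175H, H179R, Y220C, Y234C and G245S) had changes that affect the fold. The 3 control lines were the parental cells (WT), cells with p53 knocked down by shRNA (WTKD) and cells overexpressing V5-tagged wild-type p53 (WTOE). No line was treated, and all were grown in the same medium with serum, EGF, insulin, hydrocortisone and cholera toxin. The mutants and the wild-type protein were in different vectors, so vector and mutation cannot be told apart in a comparison of the mutants with WTOE. Chromatin bound by V5-tagged p53 was sequenced in WTOE, R273C, R273H, Y220C and Y234C, again with 1 library each against input DNA. Each group is therefore a set of different lines, and a p-value below measures the spread between lines, not between repeated cultures of a line.

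Class I molecules display peptides from inside the cell to T cells and natural killer cells. Peptides cut by the proteasome are pumped into the endoplasmic reticulum by the transporter TAP1 and TAP2, and tapasin (TAPBP) holds an empty heavy chain next to that transporter until a peptide is bound. The heavy chain (HLA-B, HLA-C, HLA-E or HLA-F) reaches the surface together with the light chain beta-2-microglobulin (B2M). NLRC5 is the transactivator that raises these genes through a shared promoter module, and interferons raise them through factors such as IRF1. Epithelial cells make class I molecules without stimulation, and TAP1 has been described as a p53 target.

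In the GENCODE annotation of GRCh38, 7 of the 9 genes lie in the MHC on chromosome 6, within 3.59 Mb. HLA-F runs from 29722775 to 29738528 and HLA-E from 30489509 to 30494194 on the plus strand. HLA-C (31268749 to 31272130), HLA-B (31353872 to 31367067), TAP2 (32821833 to 32838739), TAP1 (32845209 to 32853816) and TAPBP (33299694 to 33314284) lie on the minus strand. B2M is on chromosome 15 from 44711358 to 44718851, and NLRC5 on chromosome 16 from 56989485 to 57083531, both on the plus strand.

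The promoters are shown because the genes share control elements there while their RNA levels varied differently between the lines. RefSeq (GRCh38.p14) gave promoter sequence for 7 of the 9 genes, without HLA-E and NLRC5. The following are the 200 bases upstream of an annotated start, read 5′ to 3′ along the gene. Capitals mark the interferon-stimulated response element core GAAANNGAAA, the shorter interferon element GAANNGAAA, the X2 box TGACG and the Y box CCAAT, each in either orientation.
HLA-B, chr6:31357180-31357379, minus strand: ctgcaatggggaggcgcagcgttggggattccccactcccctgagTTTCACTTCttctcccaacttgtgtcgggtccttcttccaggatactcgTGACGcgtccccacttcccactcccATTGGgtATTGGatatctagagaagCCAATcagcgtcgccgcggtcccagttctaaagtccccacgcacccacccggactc
HLA-C, chr6:31272093-31272292, minus strand: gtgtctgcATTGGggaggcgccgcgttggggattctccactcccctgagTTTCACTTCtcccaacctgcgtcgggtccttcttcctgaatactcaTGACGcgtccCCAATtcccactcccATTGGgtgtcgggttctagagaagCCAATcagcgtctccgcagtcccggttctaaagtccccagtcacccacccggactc
HLA-F, chr6:29723234-29723433, plus strand: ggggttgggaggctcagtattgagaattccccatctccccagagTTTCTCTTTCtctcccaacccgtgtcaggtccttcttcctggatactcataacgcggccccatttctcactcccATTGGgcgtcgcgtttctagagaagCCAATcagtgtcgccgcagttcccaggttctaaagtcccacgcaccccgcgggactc
B2M, chr15:44711317-44711516, plus strand: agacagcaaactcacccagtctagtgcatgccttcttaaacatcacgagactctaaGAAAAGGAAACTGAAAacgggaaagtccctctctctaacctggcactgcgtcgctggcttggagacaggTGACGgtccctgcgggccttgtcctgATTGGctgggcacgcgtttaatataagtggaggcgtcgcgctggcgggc
TAP1, chr6:32853705-32853904, minus strand: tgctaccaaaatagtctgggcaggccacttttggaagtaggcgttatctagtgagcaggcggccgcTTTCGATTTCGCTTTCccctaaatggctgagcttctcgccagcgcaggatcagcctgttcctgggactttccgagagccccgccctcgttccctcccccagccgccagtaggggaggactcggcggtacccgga
TAPBP, chr6:33314079-33314278, minus strand: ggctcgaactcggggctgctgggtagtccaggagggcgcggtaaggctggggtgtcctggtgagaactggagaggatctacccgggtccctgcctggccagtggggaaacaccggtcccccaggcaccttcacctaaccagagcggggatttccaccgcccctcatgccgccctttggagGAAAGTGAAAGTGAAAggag

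The GAAANNGAAA core stands in the HLA-F, B2M, TAP1 and TAPBP sequences shown and 58 to 49 bases before the TAP2 start, and in 3.02% of 35116 promoters of the same 250-base length. HLA-B and HLA-C hold the shorter GAANNGAAA instead, found in 6.56% of promoters. TGACG lies in HLA-B, HLA-C, B2M and TAP2 (21.2% of promoters) and CCAAT in HLA-B, HLA-C, HLA-F and B2M within the stretch shown (32.0% of promoters). The letters of the p53 decamer occur in 5.57% of promoters and in none of the members' windows. These are matches of letters, not mapped binding sites. RefSeq also gave a TAP1 start at 32852761, not shown, whose 200 upstream bases held none of the marked elements.

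Values are given as log2(TPM+1), where TPM counts transcripts corrected for gene length and scaled to 1000000 per library. R273H and Y234C stand apart in composition: their 50 highest genes took 37.43% and 46.82% of all TPM, against 27.06% to 33.6% in the other 11 libraries. Genes above 0 numbered 12122 in R273H and 12409 in Y234C, with WT between them at 12284 and the other 10 libraries at 13080 to 15975. Read counts were not part of the table, so depth is unknown. The paper reports high duplication rates and a large, variable mitochondrial share of the RNA reads, and their part in listed zeros was not tested. Basal mammary markers summed to 1290 to 4570 TPM. Of these KRT5 had log2 values of 9.97 to 11.85, while TP63 was listed at 0 in R248W, R273C and R273H. Luminal mammary markers summed to 97.6 to 630 TPM. Of these KRT8 and KRT18 were above 0 in every line, and 3 of 7 were listed at 0 in all lines. Among blood cell markers 6 of 8 (among them PTPRC, CD3E, MS4A1, ITGAM and HBB) were listed at 0 in all 13 lines. Of the other 2, CD14 was above 0 in 12 lines, with log2 values up to 5.64 in WT, and CD68 was above 0 only in R273H, at 3.76. Summed blood cell markers were 0.835 to 48.9 TPM and summed fibroblast markers 2.39 to 60.7 TPM, DCN reaching a log2 value of 5.59 in Y220C, and their part in the results was not tested. Of 10 class II genes, 7 were listed at 0 in all lines.

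All 9 genes passed the filter of the test, which asked for log2 levels of 1 or more in 3 or more lines and left 14884 genes. Of the 9, B2M, TAPBP and HLA-C were the most abundant by median over the lines, at 190.2, 152.6 and 140.8 TPM. HLA-E followed at 51.2, TAP2 at 33.7, HLA-B at 28.4 and TAP1 at 15.1 TPM, with HLA-F at 3.27 and NLRC5 at 2.99 TPM near the filter. With 1 library per line, neighbouring lines in an order of levels cannot be told apart by replicate error. The plot of the 9 genes by line shows their values.

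**Figure D1:**
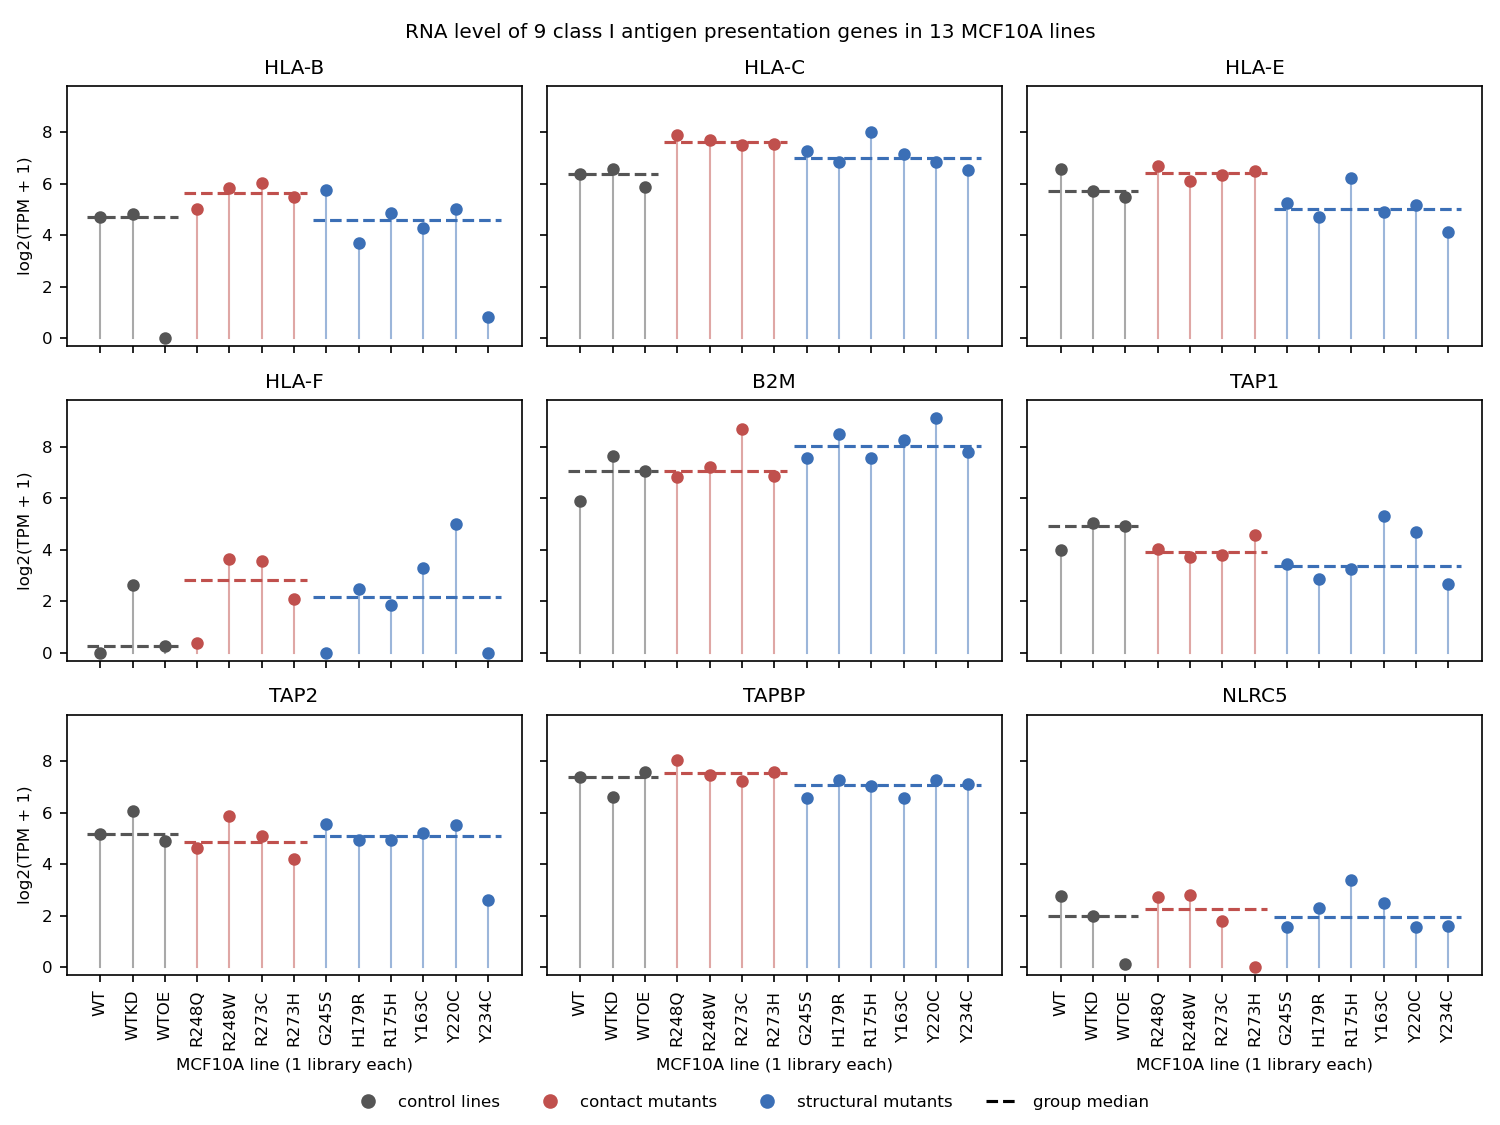
Each panel plots log2(TPM + 1) of a gene (vertical axis) in the 13 MCF10A lines (horizontal axis), with dashed lines at the medians of the control, contact and structural groups. HLA-B was 0 in WTOE and 0.84 in Y234C, HLA-F was at 0 in WT, G245S and Y234C, and TAPBP stayed between 6.56 and 8.04.

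Among the heavy chains, HLA-C, a classical molecule that presents peptides to T cells and is read by killer-cell receptors, had log2 values of 6.38 in WT, 6.56 in WTKD and 5.90 in WTOE. In the contact mutants it was 7.90 in R248Q, 7.71 in R248W, 7.49 in R273C and 7.56 in R273H. In the structural mutants it was 7.27 in G245S, 6.87 in H179R, 8.03 in R175H, 7.15 in Y163C, 6.85 in Y220C and 6.53 in Y234C. Only Y234C, at 6.53, overlapped the control lines, lying just under WTKD at 6.56.

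HLA-E, which shows leader peptides of other class I molecules to natural killer cells, split the mutants instead. It was 6.69 in R248Q, 6.10 in R248W, 6.34 in R273C and 6.49 in R273H. It was 5.25 in G245S, 4.71 in H179R, 6.21 in R175H, 4.89 in Y163C, 5.17 in Y220C and 4.13 in Y234C. R175H was the structural line within the contact range, and the control lines spanned both ranges at 6.58 in WT, 5.71 in WTKD and 5.50 in WTOE.

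HLA-B, the other classical heavy chain, was 4.70 in WT, 4.84 in WTKD and listed at 0 in WTOE. In the mutants it ran from 0.84 in Y234C, with a median of 5.04, to 6.02 in R273C. Leaving WTOE and Y234C aside, the other 11 lines lay between 3.70 and 6.02. Its SD over the 13 lines, 1.86, was higher than that of 96.4% of the genes tested. A value of 0 at this level was uncommon: of 6501 genes with a median of at least 4 in the other lines, 26 (0.40%) were listed at 0 in WTOE. The class I heavy chains are near-identical copies with many alleles and the authors counted uniquely mapped reads, so how reads were split between these genes is uncertain.

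HLA-F, a heavy chain of low abundance in most tissues, was listed at 0 in WT, G245S and Y234C and reached 5.01, or 31.3 TPM, in Y220C. It was 0.27 in WTOE and 0.40 in R248Q, and between 1.86 and 3.65 in the remaining 7 lines. The gene overlaps the antisense gene HLA-F-AS1 over 11928 bases, and that gene was itself between 0 and 3.36, so without strand information their reads cannot be told apart.

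The light chain B2M was lowest in WT at 5.89, and 7.66 in WTKD and 7.04 in WTOE. In the contact mutants it was 6.83 in R248Q, 7.23 in R248W, 8.68 in R273C and 6.87 in R273H. In the structural mutants it was 7.58 in G245S, 8.49 in H179R, 7.57 in R175H, 8.26 in Y163C, 9.12 in Y220C and 7.78 in Y234C. All 6 structural mutants lay above 3 of the 4 contact mutants, with R273C as the exception.

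Of the 9 genes tapasin varied least, while the transporter subunits had SDs of 0.84 (TAP1) and 0.87 (TAP2) on the log2 scale, close to that of B2M (0.88). TAP1 ran from 2.68 in Y234C, with a median of 4.01, to 5.32 in Y163C, and its gene overlaps PSMB9 on the other strand. TAP2 ran from 2.63 in Y234C, with a median of 5.12, to 6.09 in WTKD. TAPBP ran from 6.56 in G245S, with a median of 7.26, to 8.04 in R248Q, and its SD of 0.434 was below that of all but 2.56% of the genes tested. NLRC5 ran from 0 in R273H and 0.14 in WTOE, with a median of 2.00, to 3.39 in R175H.

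Mutant and control lines were compared to ask whether the p53 mutants share a change in class I RNA. None of the 9 genes passed the limma test in either direction at an adjusted p under 0.05 (0 higher, where 0.00672% of all genes tested were called higher, and 0 lower, where 0.0134% were). HLA-C had the smallest p of the 9, with 7.33 ± 0.49 (SD, n = 10) in the mutant and 6.28 ± 0.34 (SD, n = 3) in the control lines. The log2 difference was 1.06 with a standard error of 0.43 (limma, unadjusted p = 0.0242, adjusted p = 0.932). Without R273H and Y234C it was 1.13 and without WTOE 0.86 on the log2 scale. It was the single member with an unadjusted p under 0.05, as 1.93% of all genes were in that direction. Over all alternatives the difference of HLA-C stayed positive, from 0.86 to 1.25.

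HLA-B differed by 1.51 on the log2 scale (SE 1.03), at 4.69 ± 1.53 (SD, n = 10) against 3.18 ± 2.76 (SD, n = 3), and without WTOE the difference was -0.08. HLA-F differed by 1.27 (SE 0.95), by 0.79 without WT and by 2.1 without WTKD. B2M differed by 0.97 (SE 0.55) and by 0.49 without WT. TAP1 differed by -0.82 (SE 0.55), TAP2 by -0.53 (SE 0.58), HLA-E by -0.33 (SE 0.56), NLRC5 by 0.39 (SE 0.65) and TAPBP by 0.03 (SE 0.42). Single control libraries moved several of these: without WT HLA-E differed by -0.0051 and NLRC5 by 0.96, without WTOE HLA-E by -0.54 and NLRC5 by -0.36, and without WTKD TAP2 by -0.19 and TAPBP by -0.26. Every one of these 8 intervals covered 0 (limma, adjusted p between 0.932 and 0.995). Of the 9 differences 6 were positive with a median of 0.39, where 45% of all genes were positive and the median over all genes was -0.08. No member separated the mutant from the control lines without overlap, as 0.222% of all genes did upward and 0.779% downward.

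The contact and structural mutants were compared to ask whether the kind of mutation sets class I RNA. No gene of the 14884 was called (limma, 0% higher and 0% lower at an adjusted p under 0.05, 734 genes at an unadjusted p under 0.05), and so none of the 9. HLA-E had the smallest p, with 6.41 ± 0.25 (SD, n = 4) in the contact and 5.06 ± 0.69 (SD, n = 6) in the structural mutants. The log2 difference was 1.35 with a standard error of 0.47 (limma, unadjusted p = 0.0132, adjusted p = 0.96), and it was 1.13 without R273H and Y234C. Of all genes 2.86% had an unadjusted p under 0.05 in that direction, and HLA-E was the only member. HLA-B differed by 1.51 (SE 0.78), and by 0.91 without R273H and Y234C, Y234C being the line near 0. TAPBP differed by 0.61 (SE 0.41) and HLA-C by 0.55 (SE 0.44), both higher in the contact mutants on average, and B2M by -0.73 (SE 0.52), or -1.15 without R273C. TAP1 (0.32), HLA-F (0.32), TAP2 (0.15) and NLRC5 (-0.33) had differences under 1 standard error. Of the 9 differences 7 were positive, with a median of 0.32, where 50.4% of all genes were positive. None of the 9 separated the classes without overlap, as 0.766% of all genes did upward and 0.262% downward. The 95% intervals of the plotted differences bound what these lines leave possible.

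**Figure D2:**
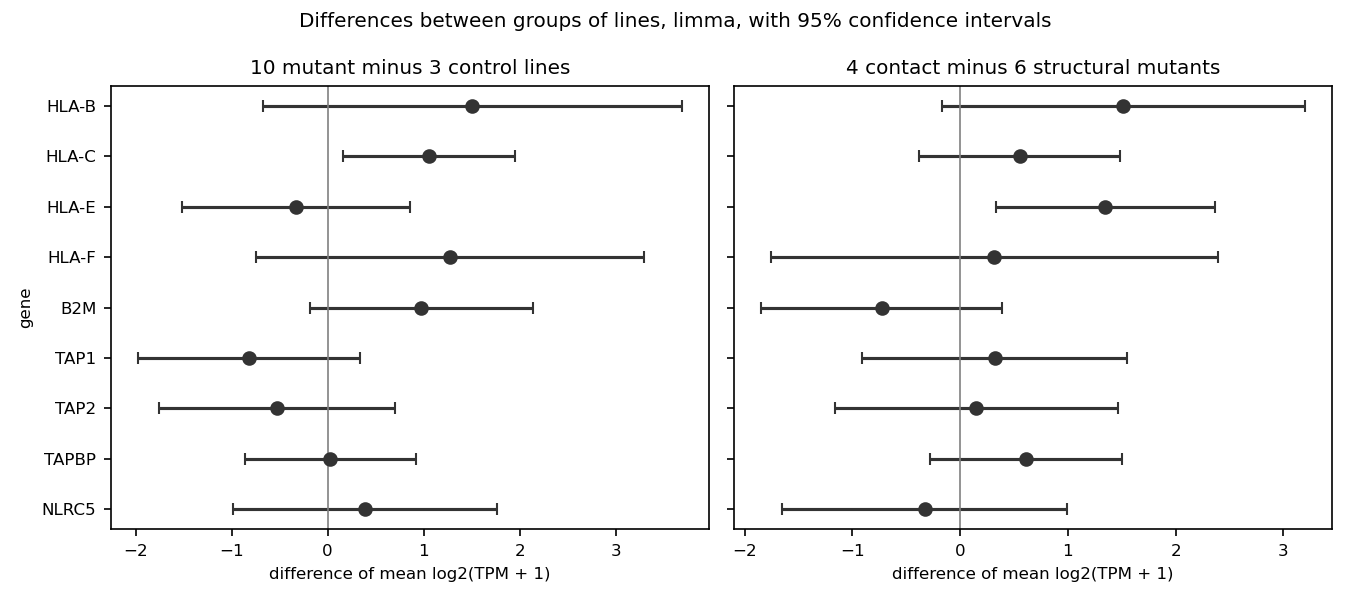
Points give the difference of mean log2(TPM + 1) (horizontal axis) for each gene (vertical axis), on the left for 10 mutant minus 3 control lines and on the right for 4 contact minus 6 structural mutants, with 95% confidence intervals from limma. The interval lies above 0 for HLA-C on the left (0.16 to 1.95) and for HLA-E on the right (0.33 to 2.36), and neither gene passed after adjustment over all genes.

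A ratio of HLA-C to HLA-E within a library is free of that library's scaling. The log2 ratio of their TPM was -0.20 in WT, 0.87 in WTKD and 0.40 in WTOE. It was 1.22 in R248Q, 1.63 in R248W, 1.16 in R273C and 1.07 in R273H. It was 2.05 in G245S, 2.2 in H179R, 1.83 in R175H, 2.30 in Y163C, 1.71 in Y220C and 2.46 in Y234C. The control, contact and structural lines thus fell into ranges that do not overlap. The means were 0.36 ± 0.54 (SD, n = 3), 1.27 ± 0.25 (SD, n = 4) and 2.09 ± 0.29 (SD, n = 6).

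This ratio was singled out after its values were seen, so no test is given. Among the 15 pairs of the 6 members above 0 in every line it was the only pair with 3 separate ranges, which 0.023% of the 38557371 pairs of such genes showed. HLA-C over TAP2 was the other pair in which mutant and control lines did not overlap, at 1.35 to 4.13 against 0.48 to 1.22, as in 1.1% of all pairs. Contact and structural mutants did not overlap in 1 of the 15 pairs, where 1.48% of all pairs did so. With 1 added to each TPM the HLA-C to HLA-E ranges were still apart, at -0.20 to 0.85, 1.06 to 1.61 and 1.68 to 2.39.

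**Figure D3:**
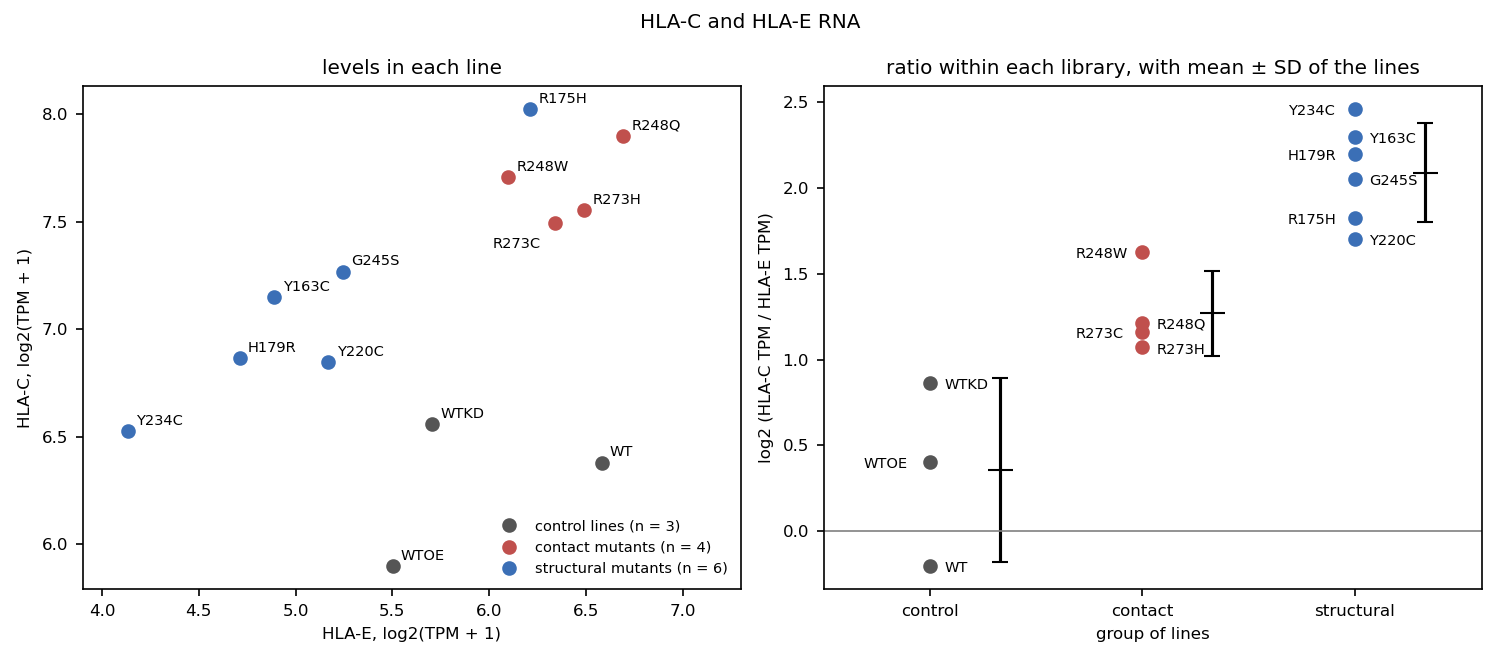
On the left HLA-C is plotted against HLA-E, both in log2(TPM + 1), with a point for each of the 13 lines. On the right the log2 ratio of HLA-C to HLA-E TPM is plotted by group with the mean ± SD of the lines, and the 3 groups occupy -0.20 to 0.87, 1.07 to 1.63 and 1.71 to 2.46.

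Summed over HLA-B, HLA-C, HLA-E and HLA-F, heavy chain RNA was 202 TPM in WT, 177.3 in WTKD and 103.1 in WTOE. It was 323 to 372.8 TPM in the 4 contact mutants. In the structural mutants it was 242.9 in G245S, 157.5 in H179R, 363.7 in R175H, 197.1 in Y163C, 212 in Y220C and 108.5 in Y234C. In unscaled TPM the contact mutants were thus close to each other and above every line but R175H. The log2 factor of a median-of-ratios scaling was -0.57 in R273H and 0.03 to 0.28 in the other contact mutants. The sums were not rescaled, so their closeness holds for unscaled TPM only. HLA-C made up 40.71% to 56.84% of this sum in the control lines and 53.63% to 84.01% in the mutants. HLA-E made up 28.88% to 46.88% in the control lines, 19.63% to 27.55% in the contact and 14.54% to 20.12% in the structural mutants.

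Heavy and light chain did not move in step. The log2 ratio of the heavy chain sum to B2M was 1.79 in WT, -0.18 in WTKD and -0.35 in WTOE. It was 1.72 in R248Q, 1.20 in R248W, -0.29 in R273C and 1.48 in R273H. It was 0.35 in G245S, -1.18 in H179R, 0.95 in R175H, -0.63 in Y163C, -1.39 in Y220C and -1.01 in Y234C. On this scale a value above 0 means more summed heavy chain than light chain RNA, and WT and Y220C stood at the ends. TAP1 was the lower of the transporter subunits in most lines, with a log2 ratio to TAP2 from -2.27 in R248W to 0.41 in R273H.

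**Figure D4:**
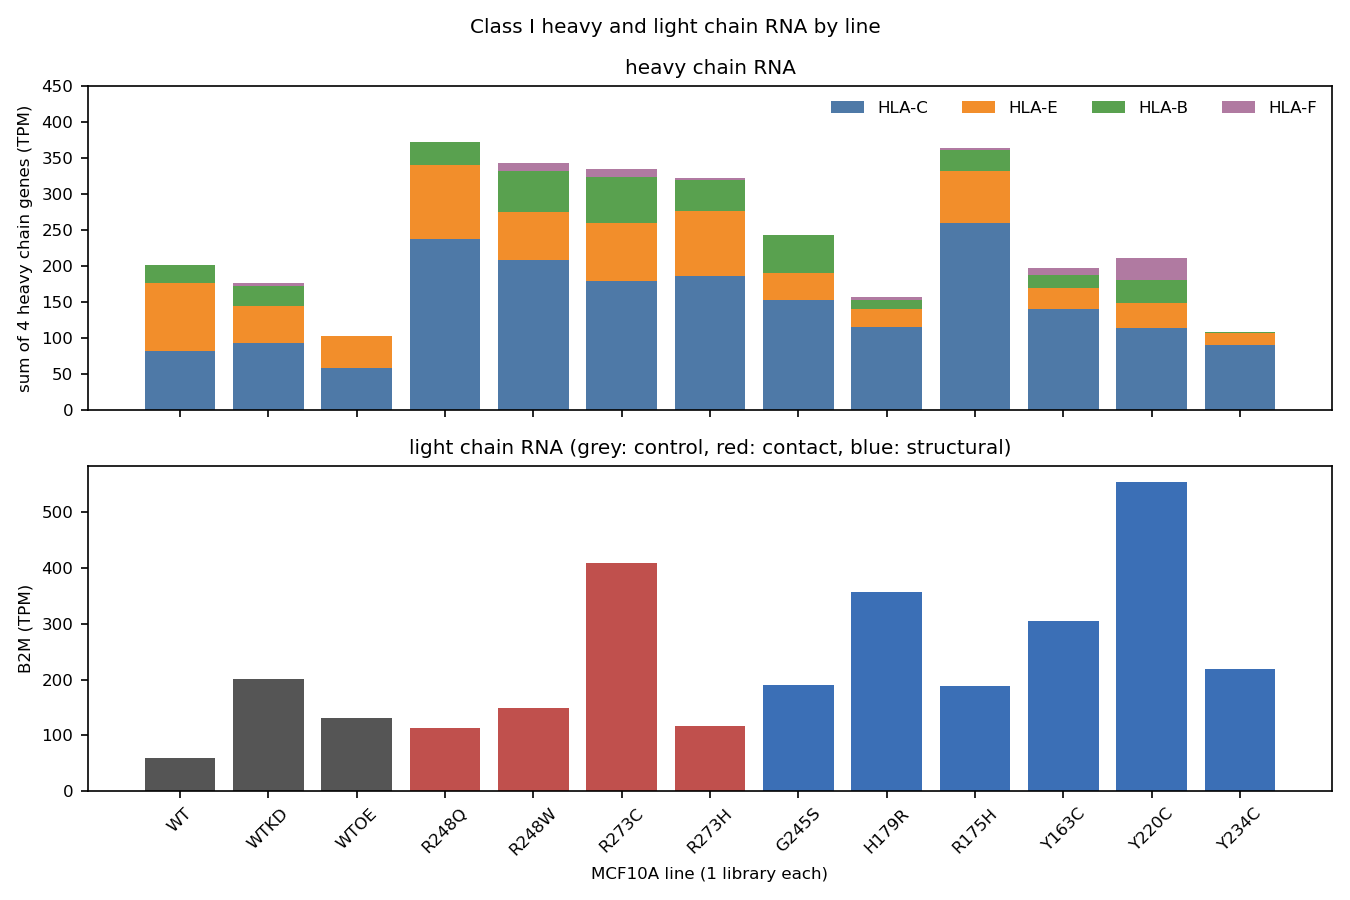
Stacked bars give the TPM of HLA-C, HLA-E, HLA-B and HLA-F in each line (top), and bars give the TPM of B2M (bottom), with 1 library per line. Heavy chain sums run from 103.1 TPM in WTOE to 372.8 in R248Q and B2M from 58.5 TPM in WT to 554.9 in Y220C, in a different order of lines.

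Single lines were then set against the median of the other 12, with a log2 difference of at least 1 as the mark and no test. Y234C was lower in 5 of the 9 genes (HLA-B, HLA-E, HLA-F, TAP1 and TAP2), but 42.3% of all genes were lower by as much in that library. After scaling by median of ratios, added after seeing the data, 3 of 9 (HLA-B, HLA-F and TAP2) were lower there against 20.4% of all genes, and B2M and TAPBP were higher. The library labelled WTOE was lower in 4 genes (HLA-B, HLA-C, HLA-F and NLRC5) with either scaling, where 13.7% of all genes were. H179R was lower in 3 (HLA-B, HLA-E and TAP1, 8.1% of all genes).

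R273C was higher in 3 genes (HLA-B, HLA-F and B2M, 18.2% of all genes), or in HLA-B and HLA-F after median-of-ratios scaling (15.2%). Higher values were also found for Y220C in HLA-F and B2M (18%), R175H in HLA-C and NLRC5 (12%) and Y163C in HLA-F and TAP1 (17.2%). R273H was higher in none (11.5% of all genes higher) and lower in NLRC5 (35.2% of all genes lower), and after the same scaling it was higher in 5 (HLA-B, HLA-C, HLA-E, TAP1 and TAPBP) against 19.6% of all genes. WT was lower in HLA-F and B2M (15.9%), WTKD higher in TAP1 and TAP2 (16.7%), and WTOE, beside its 4 lower genes, higher in TAP1 (15%). R248Q was higher in HLA-E (18.6%) and lower in HLA-F (12.7%), and R248W was higher in HLA-F (17.2%). G245S was lower in HLA-F (9.41%) and Y163C in HLA-E (4.06%). These counts are descriptions of single libraries.

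**Figure D5:**
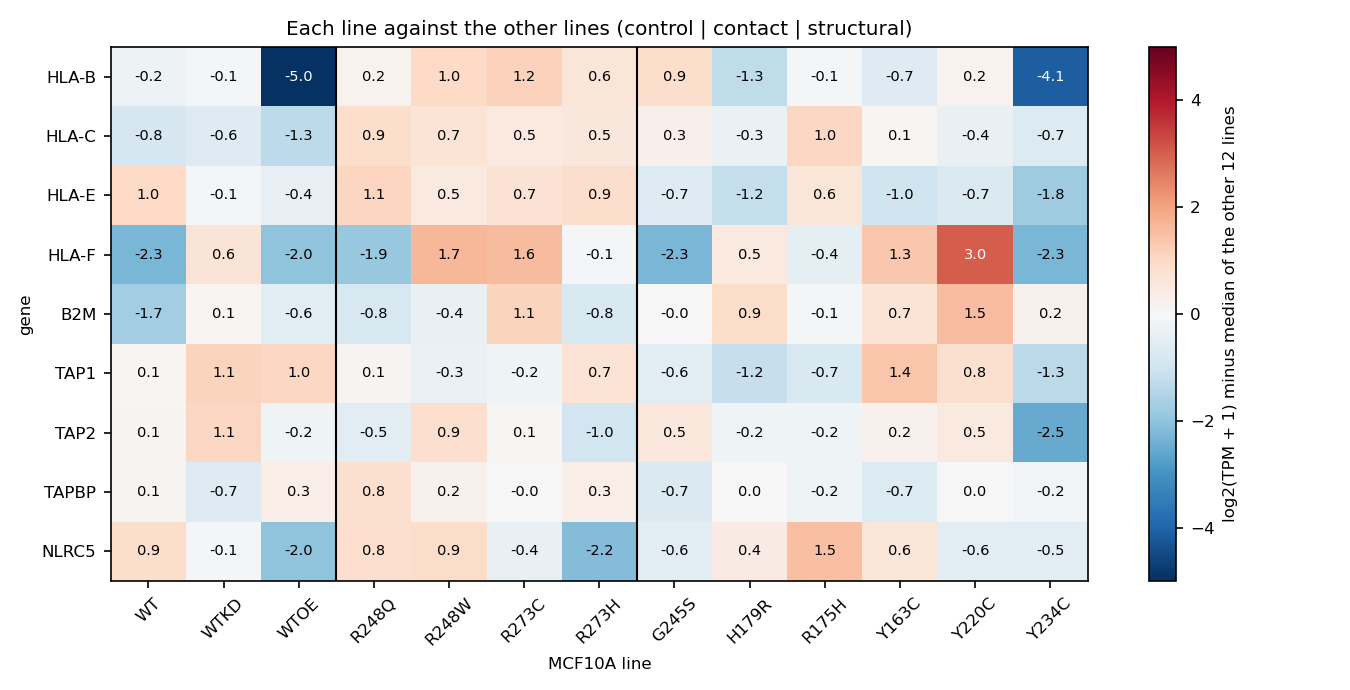
Each cell gives log2(TPM + 1) of a gene (rows) in a line (columns) minus the median of the other 12 lines, blue for lower and red for higher. The largest shortfalls are HLA-B in WTOE (-4.95) and in Y234C (-4.11), and the largest excess is HLA-F in Y220C (3.04).

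Knockdown of p53 was set against the parental cells. WTKD was higher than WT by 2.62 in HLA-F, from a listed 0, by 1.76 in B2M and by 1.02 in TAP1, where 25% of all genes were higher by at least 1, and no member was lower by 1, where 15.4% of all genes were. WTOE was higher than WT in B2M by 1.15 and differed by -4.70 in HLA-B, -2.64 in NLRC5 and -1.08 in HLA-E (20.4% of all genes higher and 18% lower). Between substitutions at the same residue, R248W exceeded R248Q by 3.26 in HLA-F and 1.26 in TAP2 (22.4% of all genes higher, 17.4% lower with no member among them). R273C exceeded R273H by 1.81 in B2M, 1.79 in NLRC5 and 1.48 in HLA-F (44% of all genes higher, 10.4% lower with no member among them). HLA-C and HLA-E differed by less than 1 within both of these pairs, and HLA-F differed by more than 1 in both.

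Correlations over the 13 lines describe how the genes moved together. All values of a line come from 1 library and share its depth and scaling. HLA-B and HLA-C had a Pearson r of 0.701 (Spearman rho 0.692), and r was 0.524 without WTOE. HLA-F and B2M had an r of 0.69 (rho 0.558), and both also followed the number of genes above 0 in the library (r of 0.702 and 0.678), whose part in that relation was not tested. HLA-E and B2M had an r of -0.552 (rho -0.681). With median-of-ratios scaling r was 0.507 for HLA-B and HLA-C, 0.498 for HLA-F and B2M and -0.526 for HLA-E and B2M. TAP1 and TAP2 had an r of 0.444, which was 0.0964 without Y234C. NLRC5, the transactivator, had r between -0.327 and 0.421 with the other 8 genes.

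Genes whose profile was most like the mean standardised profile of the 9 members were ranked by r over the 13 lines among all genes tested. The 10 highest were ZBTB37 (r = 0.902), ARPIN (0.893), FAM122A (0.887), TRIM37 (0.876), SCCPDH (0.873), STX18 (0.855), C6orf48 (0.855), RNF14 (0.85), MYL6 (0.844) and MINPP1 (0.84). None of them is a class I pathway gene in the lists used here. Spearman rho of these 10 genes ran from 0.593 for RNF14 to 0.863 for C6orf48. As the top of a ranking over all genes tested their r is high by selection, and no chance level was computed.

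Other genes of the pathway were read from lists, and no gene of any list passed the limma test in either comparison. Of the inducible proteasome subunits, PSMB9 was listed at 0 in all 3 control lines and also in R273H and Y234C. It was 1.73 in R248Q, 1.57 in R248W, 1.84 in R273C, 1.26 in G245S, 1.32 in H179R, 2.54 in R175H, 2.87 in Y163C and 0.58 in Y220C. Its mean difference between mutant and control lines was 1.37 (SE 0.58, limma, unadjusted p = 0.0309, adjusted p = 0.932). Only mutant lines brought PSMB9 past the filter, so its p-value partly follows from that selection and is no support for a difference. PSMB8 differed by 0.26 (SE 0.66) and PSMB10 by -0.94 (SE 0.70). The interferon pathway factor IRF1 differed by 1.09 (SE 0.68).

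Of the 8 genes for peptide trimming and loading, 4 had positive mutant minus control differences, from -0.60 for the trimming peptidase ERAP1 and -0.49 for LNPEP to 0.36 for calreticulin (CALR) and 0.83 for ERAP2. Of 16 promoter factors and interferon signalling genes 10 were positive, with NFYA (-0.72) and NFKB1 (-0.59) lowest. Of 9 tested class I-like genes and stress ligands 6 were positive, from ULBP2 (-1.33) and CD1D (-0.45) to HLA-G (1.01) and HFE (1.44). HLA-G reached the level of the filter only in mutant lines, so its difference partly follows from that selection. Of 14 tested interferon-stimulated genes 13 were positive with a median of 0.88, where 45% of all genes tested were positive. Among them IFIT1 and IFI44 reached the level of the filter only in mutant lines. Their positive differences partly follow from that selection, so the count is no support for a difference. Highest were BST2 (3.16, limma, adjusted p = 0.659) and ISG15 (2.57, limma, adjusted p = 0.823), and IRF7 (-0.07) and IFIT3 (0.01) were lowest. In WTOE ISG15 was listed at 0, IFIT3 was 0.18 and IFI6 0.48, while OAS3 was 4.75. This list was not compared without WTOE. BST2 was 6.91 in WT, 5.19 in WTKD and 0.41 in WTOE, and 5.79 to 9.45 in the mutants. The 3 constitutive catalytic subunits replaced by the inducible ones all had small negative differences (PSMB5 -0.34, PSMB7 -0.34 and PSMB6 -0.23).

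Between contact and structural mutants, IRF7 was listed at 0 in all 6 structural lines and was 1.91 in R248Q, 2.67 in R248W, 1.96 in R273C and 0 in R273H (log2 difference 1.64, limma, adjusted p = 0.96). Among the mutants IRF7 reached the level of the filter only in contact lines, so its difference partly follows from that selection. IFI6 differed by 2.90, IRF9 by -1.80 and OAS1 by -0.93. HFE, a class I-like iron regulator, differed by 1.26, while MICB (-0.51) and ULBP3 (-0.19) were lowest of their list. NFYA, part of the complex that binds the Y box, differed by -1.27. Of 8 basal markers TP63 (-3.11, limma, adjusted p = 0.764) and KRT17 (-1.97) were lowest. The median of that list was -1.18, and 2 were positive, EGFR (0.56) and ITGB4 (0.03), where 50.4% of all genes were positive. Their part in the class I values was not tested.

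V5 ChIP peaks were read to ask whether tagged p53 was found at these genes. A promoter was taken as 2500 bp upstream to 100 bp downstream of an annotated start. Of the 9 genes and 5 lists, a single promoter peak was found, at HLA-E in R273H, where 2.68% of tested genes had a promoter peak. Its fold enrichment over input was 3.62 with a -log10 q of 1.68, a weak peak that a limit of 2 would remove. The other lists had none at a member, against 6.72% of tested genes in WTOE, 1.19% in Y234C, 0.25% in Y220C and 0% in R273C.

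The summit of the HLA-E peak lay 2.05 kb upstream of the gene's start. R273H also had a peak 3.35 kb upstream of HLA-F (fold enrichment 4.22, -log10 q 2.49). In WTOE a peak within the NLRC5 gene had its summit 1210 bp past the start (chr16:56990508-56990829, fold enrichment 3.52, -log10 q 2.50). Between HLA-F and TAPBP, the WTOE list held 12 peaks of 11277, R273H 8 of 25309 and the other lists 0. The nearest peak to B2M was 19.8 kb from its start, in R273H, and no R273C peak lay on chromosome 15. A peak at 1 gene in 1 library has no replicate, and binding cannot be read from it.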

How the data were processed

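RNA of 13 lines and V5 ChIP of 5 lines with input were used. For the RNA, STAR and GRCh38 were used by the authors, who counted uniquely mapped reads, left out mitochondrial transcripts and deposited log2(TPM+1), each library scaled to 1000000. The cDNA was amplified before library preparation and duplicates were marked. Peaks came from MACS2 2.1.2.20181017 with a q limit of 0.05, after Bowtie2 2.1.0 and SAMtools 1.7, per the submitters' processing notes and the paper's methods. The deposited fold enrichment is a ratio to input, and the deposited -log10 values and score come from MACS2. HOMER output was not used.

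The members and gene lists were chosen with earlier results of these data known. Named genes are the 9 members, PSMB8, PSMB9, PSMB10, IRF1, the 2 highest and 2 lowest differences of each pathway list and the 10 genes of highest r with the members' mean profile. A few results that would fall under this rule or the check of the labels are not reported here. limma 3.58.1 in R 4.3.3 was fitted to the 14884 genes whose log2(TPM+1) reached 1 in 3 or more lines, two-sided, with Benjamini-Hochberg adjustment over all of them, and was tested on simulated data. A count model was not used, since counts were not analysed here. Mutant versus control used all 13 lines, contact versus structural the 10 mutants. Python 3.11.15 with pandas 2.3.3, numpy 2.4.6 and matplotlib 3.10.9 gave the values, ratios and overlaps. Annotation matched 57717 of 58358 genes by identifier, on the same assembly but from a later release than the authors' one. TPM without counts has no counting interval. Alternatives were other pseudocounts, filters, scalings, covariates and sets of lines.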

Additional observations from a re-analysis of the deposited data

Results flagged for a closer look

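In groups of 4 to 10 lines, the gap between the lowest or highest value and its nearest neighbour was compared with Dixon's 95% limit. Of 27 groups tested (9 genes in the mutant, contact and structural lines), 3 held a value past the limit, and chance alone passes about 1 in 20. All 3 were values of Y234C, the mutant for which the paper's western blots showed no raised p53 protein. The part of that difference in these values was not tested. The groups are nested, so the same TAP2 value was flagged in more than 1 of them. HLA-B at 0.84 was the lowest of the 10 mutant lines, with the next at 3.70. TAP2 at 2.63 was the lowest of the 10 mutant lines, with the next at 4.20, and the lowest of the 6 structural mutants, with the next at 4.95. In the same library the 50 highest genes took 46.82% of the TPM and 42.3% of all genes tested were lower by at least 1 than the median of the other lines, and their part in these values was not tested. With median-of-ratios scaling HLA-B and TAP2 were still lower there by at least 1.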

How the results depend on the processing

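No paired analysis was possible because the labels give no replicate numbers and each line has 1 library. No member was called in either comparison under any alternative. In mutant versus control lines the genes called higher numbered 1 and the genes called lower 2. With log2(TPM+0.1) they were 2 and 4, without R273H and Y234C 3 and 5, and with median-of-ratios scaling 0 and 1. No gene was called higher with quantile normalization. Genes called lower were 4 with no filter, 4 without MTRNR2L and metallothionein genes, 4 with genes detected as a covariate and 1 with the filter at 3. Leaving out each line gave 0 to 5 higher and 0 to 8 lower. In contact versus structural mutants, none were called, against 5 lower with log2(TPM+0.1), 1 lower with no filter, 1 higher without R273H and Y234C, and 0 to 1 in each direction with a line left out. Without R273H and Y234C the sign turned for TAPBP in mutant versus control (-0.0063) and for TAP1 (-0.0699), TAP2 (-0.0311) and NLRC5 (0.17) in contact versus structural mutants. Leaving out single lines gave ranges across 0 for HLA-B (-0.0838 to 2.34), TAPBP (-0.26 to 0.22) and NLRC5 (-0.36 to 0.96) in the first comparison, and for HLA-F (-0.11 to 0.99), TAP2 (-0.28 to 0.40) and NLRC5 (-0.66 to 0.28) in the second. The other members kept their sign in every alternative. The cause of these shifts was not tested.

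Members with a promoter peak in R273H were 0 at a -log10 q of at least 2 and 2 within 10 kb of a start, and in WTOE 1 within 10 kb. Median-of-ratios scaling, added after seeing the data, gave 1 member higher in WT, 1 in WTKD, 2 in R273C (B2M no longer), 1 in Y163C, 5 in R273H and 2 in Y234C, where 3 were lower. With it r of TAP1 and TAP2 was 0.154, and leaving out a line gave 0.0964 to 0.528. The difference of the HLA-C to HLA-E log2 ratio ran from 1.13 to 1.66 for mutant minus control and from -0.94 to -0.747 for contact minus structural with a line left out. NLRC5 could not be compared with the filter at 3 since it did not pass it. Depth was unknown, so a listed 0 of HLA-F or NLRC5, both near the filter, has no stated floor.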
